A study of Mus musculus with 4 samples.

Results

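The genes of iron storage, iron uptake and export, iron sensing and heme handling were examined in B16F10 cells exposed to plumbagin. The 10 genes were listed by name: Fth1, Ftl1, Tfrc, Slc11a2, Slc40a1, Aco1, Ireb2, Slc48a1, Blvra and Blvrb. Each was followed through every probe set annotated to that gene alone, and the brightest of these over the 4 arrays gave its main value. This left 8 genes, read by 13 probe sets, of 17097 genes with a name on the array. Slc11a2, the importer of ferrous iron, was annotated only to 2 probe sets that also name another gene, and Ireb2, which encodes iron regulatory protein 2, had no annotated probe set; neither was analysed here.

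B16F10 is a pigmented mouse melanoma line. There were 2 samples of cells given 2 µM plumbagin for 24 h (plumbagin 1 and 2) and 2 samples given MilliQ water, that is 0 µM plumbagin (control 1 and 2), each hybridised to 1 Affymetrix 3-prime expression array. Plumbagin is a plant naphthoquinone that can take part in redox cycling. All samples were of 1 cell line, and the labels do not say whether those of a group were separate cultures, so the p-values measure the spread between these samples, which may be technical.

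Cells take up iron bound to transferrin through the transferrin receptor, keep it in ferritin, a shell of heavy and light chains, and release it through ferroportin. Iron regulatory proteins bind stem-loops called iron-responsive elements in the mRNAs of ferritin, the transferrin receptor and ferroportin, so that iron supply changes translation of some of these mRNAs and the stability of others. Heme is broken down by heme oxygenase to biliverdin, carbon monoxide and iron, and biliverdin reductases turn biliverdin into bilirubin. Ferritin, ferroportin, heme oxygenase 1 and Blvrb are also known as targets of NRF2, a transcription factor that electrophiles and quinones can activate.

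The values are log2 expression values, so that a difference of 1 would be a doubling of signal. The median value per array lay between 4.32 and 4.39. The upper quartile was 6.26 on plumbagin 1 and 6.36 on plumbagin 2, against 6.35 on control 1 and 6.34 on control 2, and differences without plumbagin 1 are also given for the larger ones that shrink without it. A mean of 5.05, the 95th percentile of 41 odorant receptor genes, was used as the background level, and 8637 genes lay above it. All 8 melanocyte markers were above it on average, with values between 7.92 and 12.35, whereas none of 10 macrophage markers (2.98 to 4.69) and none of 8 fibroblast markers (2.98 to 4.50) was. Of 7 measured erythroid markers, Ank1 (5.24 to 5.46) and Hba-a1 (7.14 to 7.29) were above it, and the erythroid heme synthesis gene Alas2 was not (3.81 to 4.02). The small number of arrays, 2 per group, sets the precision. An exact permutation test of 2 arrays against 2 cannot give a two-sided p below 0.333.

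No iron or heme gene passed the test between plumbagin and control. Among the 8 genes, the 2 largest differences were of the transferrin receptor gene Tfrc, 1.28-fold higher with plumbagin, and of the biliverdin reductase gene Blvrb, 1.18-fold higher. Both ferritin genes were within 1.06-fold of the control. The arrays read bulk RNA, so a transcript in fewer cells and less of it per cell cannot be told apart. By limma, fitted over all 17097 genes with Benjamini-Hochberg adjustment, 0 of the 8 genes and 0% of all genes had an adjusted p under 0.05, and the adjusted p was 1 for each of the 8. At an unadjusted p under 0.05, 1 of the 8, Blvrb, was higher, against 0.257% of all genes, and 0 were lower, against 0.731% of all genes. Both plumbagin arrays lay above both control arrays in 3 of the 8 (Fth1, Tfrc and Blvrb), against 10.2% of all genes and 5.66% of those above background. They lay below both in 0 of the 8, against 15.2% of all genes and 18.3% of those above background. The difference was above 0 in 5 of the 8, against 44.8% of all genes. It was below 0 in 3, against 55% of all genes and 65% of those above background. The median difference was 0.04 for the 8 genes, -0.01 for all genes and -0.05 for those above background.

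**Figure D1:**
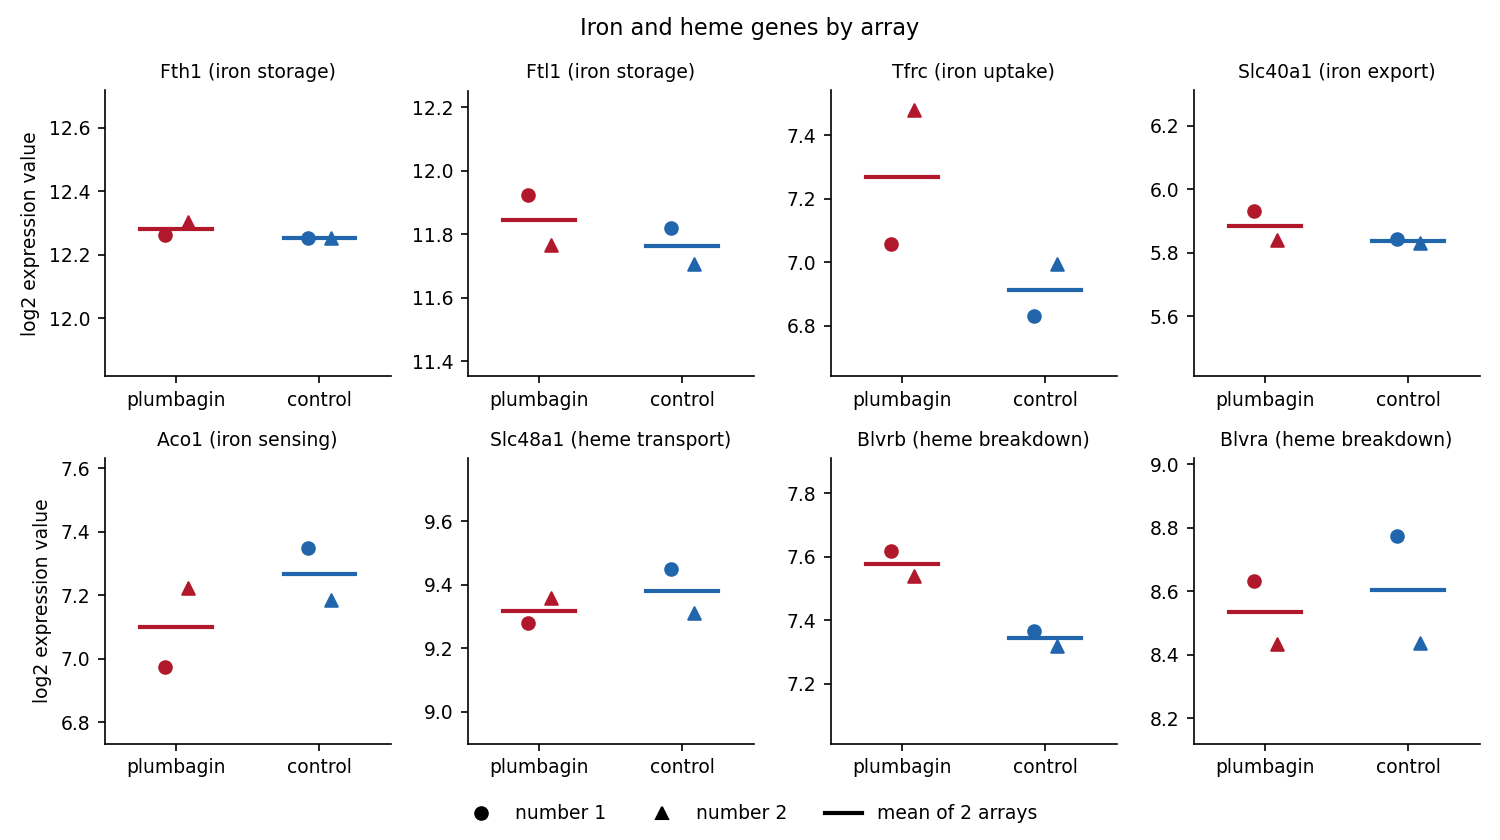
Log2 expression value of the 8 iron and heme genes on each array, plumbagin left and control right (red and blue), with circles for number 1, triangles for number 2 and bars for the mean of 2 arrays. Every panel spans the same height on the log2 scale, and the groups are apart for Tfrc, Blvrb and, by a very small distance, Fth1.

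The ferritin genes differed between the groups by less than the error of these arrays. Fth1, the heavy chain with the ferroxidase site, had values of 12.26 and 12.30 on plumbagin 1 and 2, against 12.25 and 12.25 on control 1 and 2. The 4 arrays spanned 0.05 on the log2 scale, and 6.25% of the 64 genes with a mean within 0.5 of that of Fth1 spanned less. The difference was 0.03 ± 0.08 (log2, SE, n = 2 per group), and its 95% interval ran from 0.884-fold to 1.18-fold. Although the groups did not overlap, Fth1 differed by 0.01 after each array was centred on its median, where the groups overlapped, as they did after quantile normalization was repeated. Ftl1, the light chain that helps mineral form inside the shell, had values of 11.92 and 11.77 with plumbagin, against 11.82 and 11.70 in controls. The groups overlapped, and the gap between the 2 controls (0.11) was larger than the difference of 0.08 ± 0.10, whose interval ran from 0.877-fold to 1.28-fold. Without plumbagin 1 the Ftl1 difference was 0.0039, and without plumbagin 2 it was 0.16. Ferritin genes have processed copies elsewhere in the genome, and probes may not separate them. The signal of both genes was close to the top of the scale, where array values may respond less to abundance.

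Tfrc, the receptor that carries transferrin-bound iron into endosomes, had the largest difference of the 8 genes. Its main probe set had values of 7.06 and 7.48 on plumbagin 1 and 2, against 6.83 and 6.99 on control 1 and 2. Both plumbagin arrays were above both controls, with plumbagin 2 well above the other 3 arrays and plumbagin 1 only slightly above control 2. The difference was 0.36 ± 0.17 (log2, SE), the 95% interval ran from 0.928-fold to 1.76-fold, and the unadjusted limma p was 0.102 (adjusted p = 1). The gap between plumbagin 2 and plumbagin 1 (0.42) exceeded the difference between the groups. The size rested on plumbagin 2: the difference was 0.14 without it and 0.57 without plumbagin 1. Within the number given in the sample titles, Tfrc was higher by 0.23 between plumbagin 1 and control 1 and by 0.49 between plumbagin 2 and control 2. In number 2 that difference ranked 24 from the highest of 17097 genes, and in number 1 it ranked 1596. These ranks have no replicate behind them.

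The other Tfrc probe sets did not show the difference of the main one. The next brightest had values of 5.28 and 5.44 with plumbagin, against 5.40 and 5.25 in controls, a difference of 0.04 ± 0.11. The dimmest lay below the background level, at 3.85 and 3.92 with plumbagin, against 3.81 and 3.95 in controls, and its difference was -0.0014 ± 0.09. With the 3 probe sets averaged, Tfrc differed by 0.13 and its groups overlapped. The array also carries 3 control probe sets named for the mouse transferrin receptor, which the annotation does not assign to Tfrc and which were left out of the gene's value. They lay between 2.84 and 3.86 with plumbagin, against 2.83 to 3.75 in controls, below background on every array.

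Slc40a1, which encodes ferroportin, the exporter of cellular iron, had values of 5.93 and 5.84 with plumbagin, against 5.84 and 5.83 in controls. Plumbagin 2 fell between the controls, so the groups overlapped, and the difference was 0.05 ± 0.08, with an interval from 0.886-fold to 1.21-fold. Its other probe set, also above background, had 5.58 and 5.74 with plumbagin, against 5.47 and 5.41 in controls. Here both plumbagin arrays were above both controls, as in 5 of the 13 probe sets (10.5% of all named probe sets were above, and 0 of the 13 but 14.8% of all were below), with a difference of 0.23 ± 0.10 and an unadjusted p of 0.0752 (limma over 28898 named probe sets, adjusted p = 1). With both probe sets averaged the Slc40a1 difference was 0.14, and it was 0.00215 on the main probe set without plumbagin 1.

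Aco1 encodes cytosolic aconitase, which becomes iron regulatory protein 1 when it lacks its iron-sulfur cluster. It had values of 6.97 and 7.22 on plumbagin 1 and 2, against 7.35 and 7.18 on control 1 and 2. Plumbagin 2 lay between the controls, and the lower mean came from plumbagin 1. The difference was -0.17 ± 0.13 (interval 0.703-fold to 1.13-fold), and it was -0.04 without plumbagin 1 and -0.29 without plumbagin 2. Within numbers it was -0.37 in number 1 and 0.04 in number 2. Genes of like level, the 2116 with a mean within 0.5 of that of Aco1, had a median difference of -0.17 in number 1 and -0.0011 in number 2, so a lower value in number 1 was common among them. The dim probe set of Aco1, with a mean below background, differed by 0.01 ± 0.09.

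**Figure D2:**
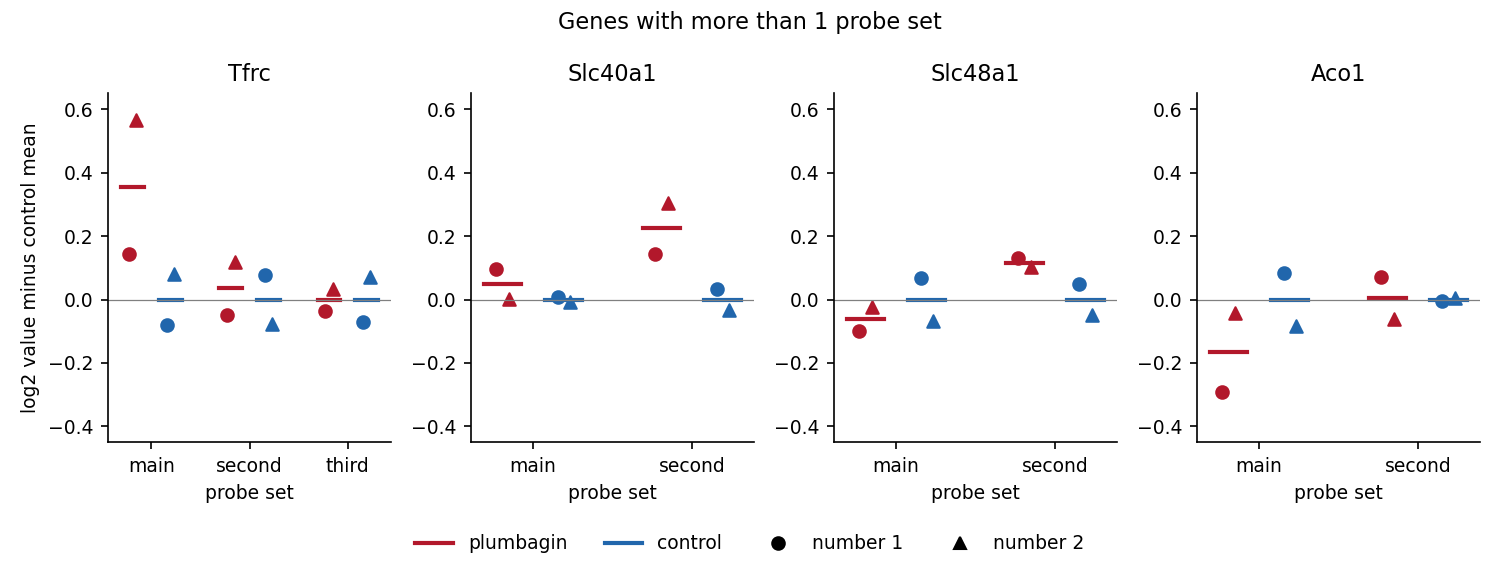
Log2 value minus the control mean of the same probe set, for the 4 genes with more than 1 probe set, plumbagin left and control right within each probe set, ordered from the brightest. The Tfrc difference is seen on its main probe set only, the Slc40a1 difference is larger on the second (0.23) than on the main one (0.05), and the 2 probe sets of Slc48a1 lie on opposite sides of 0.

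Slc48a1, known as HRG1, moves heme out of endosomes and lysosomes into the cytosol. Its main probe set had 9.28 and 9.36 with plumbagin, against 9.45 and 9.31 in controls, overlapping groups with a difference of -0.06 ± 0.09 (interval 0.805-fold to 1.14-fold). Its other probe set had 9.13 and 9.10 with plumbagin, against 9.05 and 8.95 in controls, apart and in the opposite direction, with a difference of 0.12 ± 0.08 (unadjusted p = 0.229). The direction of Slc48a1 was therefore not settled by these arrays: with both probe sets averaged the difference was 0.03.

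Of the 2 biliverdin reductases, Blvrb had groups that were apart and Blvra had groups that overlapped. The promoters of both, and of Tfrc, are shown because Tfrc and Blvrb had the 2 largest differences of the 8 genes and Blvra is the other reductase. They are RefSeq sequences of build GRCm38.p6, read 5′ to 3′ up to the base before the annotated gene, on the plus strand of chr16:32608746-32608895, chr7:27447828-27447977 and chr2:127070507-127070628. Capitals mark letters found by a search of both strands, in which matches may overlap. The core of the antioxidant response element, bound by NRF2 with a small Maf protein, was searched as TGACNNNGC. The core of the hypoxia response element, bound by the hypoxia-inducible factors, was searched as ACGTG. The CCAAT box, a general promoter element bound by the factor NF-Y, was searched by its name's letters. The GC box, a general promoter element bound by factors of the SP family, was searched as GGGCGG.
Tfrc: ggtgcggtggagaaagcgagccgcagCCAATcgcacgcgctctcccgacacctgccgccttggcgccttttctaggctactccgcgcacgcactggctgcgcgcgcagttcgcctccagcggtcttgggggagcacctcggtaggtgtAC
Blvrb: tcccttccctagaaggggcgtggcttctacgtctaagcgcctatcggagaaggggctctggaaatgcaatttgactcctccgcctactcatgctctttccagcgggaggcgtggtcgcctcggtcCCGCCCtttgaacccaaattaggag
Blvra: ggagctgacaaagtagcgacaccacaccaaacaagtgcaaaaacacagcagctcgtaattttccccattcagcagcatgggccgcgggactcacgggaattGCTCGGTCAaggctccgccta
The Blvra stretch holds the antioxidant core on the minus strand, 49 bases before the start used for its window, and the windows of Tfrc and Blvrb hold none. Of 32851 promoter windows of 300 bases, 12.4% hold that motif. The last 2 capitals of Tfrc open a hypoxia core that runs past the stretch, a motif in 19.6% of windows, and its other capitals are a CCAAT box, held by 37.4% of windows. The capitals of Blvrb are a GC box on the minus strand, held by 35.7% of windows. Outside the printed stretches, this Blvrb window holds further GC boxes and the Blvra window holds a CCAAT box. Another Blvrb window, not printed, holds a hypoxia core, and another Tfrc window holds GC boxes.  RefSeq windows were found for 7 of the 10 genes. A match is a description of letters, not a site.

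Blvrb encodes a reductase of biliverdin and flavins. It had values of 7.62 and 7.54 on plumbagin 1 and 2, against 7.37 and 7.32 on control 1 and 2. All 4 values fell into their groups with a clear gap. Blvrb was the 1 gene of the 8 whose difference exceeded both the gap between the plumbagin arrays (0.08) and that between the controls (0.05). How common this is among all genes was not computed, so it does not single out Blvrb. The difference was 0.24 ± 0.08 (log2, SE), the unadjusted limma p was 0.0425, which ranked 123 of 17097, and the adjusted p was 1. The 95% interval, not adjusted for the number of genes, ran from 1.01-fold to 1.37-fold. The difference was 0.25 in number 1 and 0.22 in number 2. Among the 2027 genes of like level the medians were -0.17 in number 1 and -0.0011 in number 2. With any array left out it stayed between 0.20 and 0.28, and with other normalizations between 0.22 and 0.30. Blvrb was read by 1 probe set, so no second reading of the transcript was available.

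Blvra encodes the main biliverdin reductase of adult tissues. It had values of 8.63 and 8.43 with plumbagin, against 8.77 and 8.44 in controls. Both arrays with number 1 were above both with number 2, whatever the treatment, and the gap between the controls (0.34) was far larger than the difference of -0.07 ± 0.15 (interval 0.715-fold to 1.27-fold). Its direction turned when plumbagin 2 (0.03) or control 1 (0.10) was left out. The difference between the responses of Blvrb and Blvra was not tested.

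**Figure D3:**
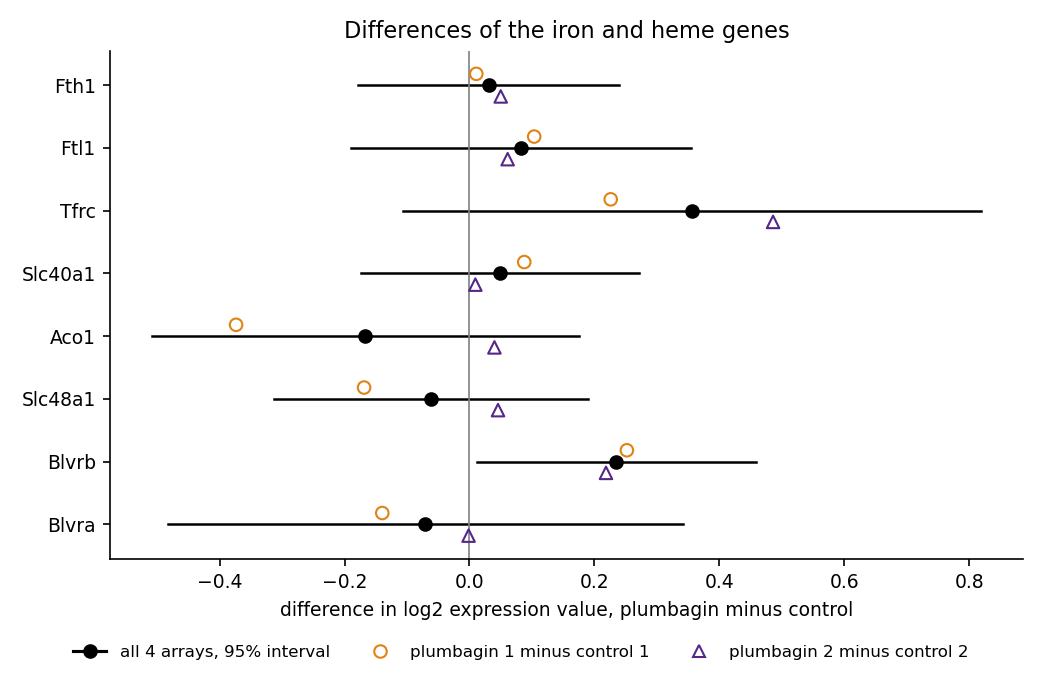
Difference in log2 expression value, plumbagin minus control, for each gene: filled circles with lines are the limma estimates from 4 arrays with their unadjusted 95% intervals, open circles are plumbagin 1 minus control 1 and open triangles are plumbagin 2 minus control 2. The interval of Blvrb lies above 0, those of the other 7 genes include 0, and Aco1 and Slc48a1 have open symbols on both sides of 0.

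Within the replicate numbers, none of the 8 genes differed by 0.5 or more in either direction. In number 1, 1.77% of all genes were higher and 2.5% lower by that much, and in number 2, 0.135% were higher and 0.0526% lower. Differences were above 0 for 5 of the 8 genes in number 1, against 44.2% of all genes, and for 7 of the 8 in number 2, against 48.1%. Among genes above background, 69.1% were below 0 in number 1, and 4242 of 8637 were above 0 in number 2. The median of the 8 genes was 0.05 in each number. In 6 of the 8 (Fth1, Ftl1, Tfrc, Slc40a1, Blvra and Blvrb) both numbers had the same sign, against 50.6% of all genes; the 2 exceptions were Aco1 and Slc48a1. The count depended on the scaling: it was 4 of 8 after median centring, against 52.9% of all genes, and 4 of 8 after quantile normalization, against 51.7%.

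The patterns of Tfrc and Aco1, the 2 genes with the widest ranges over the arrays (0.65 and 0.37), were set beside those of the 8636 other genes above background by the root mean square distance between log2 profiles centred over the 4 arrays. The nearest to Tfrc were Rida, Magi3 and Ikbip, at distances of 0.09 each, and 9 genes lay within 0.1. Rida, for example, had 6.77 and 6.97 with plumbagin, against 6.38 and 6.65 in controls. Aco1 had much closer company: Eif6, Rabif and Churc1 lay within 0.01, and 1871 genes lay within 0.1. Eif6 had 8.99 and 9.24 with plumbagin, against 9.38 and 9.20 in controls, the same order of arrays as Aco1. With 4 arrays such likeness is a description only.

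Another 100 list entries for iron and heme genes, chosen from general knowledge but with earlier results of these data known, covered 89 measured genes. Of these genes, 0 passed the limma test in either direction (adjusted p = 1 for each gene). At an unadjusted p under 0.05, 1 of the 89 was higher (Epas1) and 1 lower (Mafg), against 0.257% and 0.731% of all genes. Both plumbagin arrays lay above both controls in 7 of the 89 and below both in 12, against 10.2% and 15.2% of all genes.

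Heme synthesis genes had a median difference of -0.09, with 9 of 12 below 0 and 0 passing the test. Of all genes above background, 65% were below 0. Alas1, the rate-limiting enzyme outside red cells, had 7.16 and 7.21 with plumbagin, against 7.57 and 7.23 in controls, a difference of -0.21 ± 0.14. The groups were apart, but plumbagin 2 and control 2 were nearly equal, and without control 1 the difference was -0.04. Alad, the next enzyme, differed by -0.25 ± 0.17 and by -0.03 without control 1. Ppox, which oxidises protoporphyrinogen, had 5.91 and 6.54 with plumbagin, against 6.50 and 6.61 in controls. It was low on plumbagin 1 alone, so that the difference of -0.33 ± 0.23 was -0.01 without that array. Fech, which inserts the iron, differed by 0.02 ± 0.18. In number 1 all 12 genes were lower (median -0.15), against 55.5% of all genes and 69.1% of those above background, and in number 2 there were 6 higher and a median of 0.00017. Control 1 was above control 2 by a median of 0.22, more than the difference between the treatments.

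In heme breakdown and transport, 5 of 12 genes were above 0, the median was -0.01, and 0 passed. Hmox1, the inducible heme oxygenase, had 6.66 and 8.18 with plumbagin, against 6.73 and 7.28 in controls. It was high on plumbagin 2 alone, and the difference of 0.41 ± 0.56 had an error larger than itself and was -0.35 without that array. Within numbers the Hmox1 difference was -0.07 in number 1 and 0.89 in number 2. The latter ranked 1 from the highest of 17097 genes, a rank with no replicate behind it. Hmox2, the constitutive enzyme, differed by -0.03 ± 0.13. Hpx, the plasma heme carrier, differed by -0.13 ± 0.09 and Flvcr2, a transporter of the heme exporter family, by -0.07 ± 0.08, both with means below background.

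Genes of the transferrin cycle and ferrireductases had a median of -0.04, with 5 of 16 above 0 and 0 passing. Steap1, a member of the STEAP metalloreductase family, had 7.63 and 8.34 with plumbagin, against 8.24 and 8.77 in controls. Its groups overlapped, with a difference of -0.52 ± 0.31, or -0.17 without plumbagin 1 and -0.88 without plumbagin 2. Within numbers the Steap1 difference was -0.61 in number 1 and -0.43 in number 2. Cybrd1, a ferric reductase, differed by 0.19 ± 0.10 with means below background. Mcoln1, a lysosomal channel that passes iron, differed by -0.15 ± 0.12 (-0.03 without plumbagin 1 and -0.28 without plumbagin 2). Within numbers the Mcoln1 difference was -0.20 in number 1 and -0.11 in number 2. Of the genes for iron export and its hormonal control, 5 of 8 were above 0, the median was 0.03 and 0 passed. Neo1, a co-receptor in hepcidin control, differed by -0.12 ± 0.12 (0.02 without plumbagin 1), and 6 of the 8, among them the hepcidin gene Hamp (0.10 ± 0.12) and Bmp6 (0.05 ± 0.08), were at background.

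Iron chaperones and regulators had a median of 0.02, with 5 of 8 above 0 and 0 passing. Epas1, which encodes HIF-2α and carries an iron-responsive element in its mRNA, had 5.37 and 5.31 with plumbagin, against 5.04 and 4.76 in controls. Its groups were apart, with a difference of 0.44 ± 0.12 and an unadjusted p of 0.0200 (adjusted p = 1), and both controls were below the background level. Hif1a differed by 0.15 ± 0.12, and the mitochondrial ferritin gene Ftmt, at background, by 0.04 ± 0.09. Ncoa4, the receptor that delivers ferritin to lysosomes, differed by -0.04 ± 0.10 and Fbxl5, the iron-sensing subunit of the ligase that removes iron regulatory proteins, by 0.04 ± 0.13.

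Of the iron-sulfur cluster genes 0 passed. In mitochondria 9 of 13 were below 0, close to the 65% of all genes above background, with a median of -0.08. Both plumbagin arrays lay below both controls in 4 of the 13, against 15.2% of all genes and 18.3% of those above background. Nfu1, a cluster carrier, had 9.06 and 9.50 with plumbagin, against 9.63 and 9.62 in controls (-0.34 ± 0.17), Iba57 differed by -0.22 ± 0.10 and the mitochondrial iron importer gene Slc25a28 by -0.30 ± 0.16. Without plumbagin 1 these differences were -0.13 for Nfu1, -0.13 for Iba57 and -0.11 for Slc25a28. In the cytosolic assembly machinery 8 of 9 were below 0, with a median of -0.10. These were led by Ciao2b (-0.17 ± 0.10), Ciao1 (-0.12 ± 0.10) and Ciapin1 (-0.31 ± 0.24). The Ciapin1 difference was -0.03 without plumbagin 1 and -0.59 without plumbagin 2, and -0.40 within number 1 and -0.22 within number 2. Within number 1 the medians of the mitochondrial and cytosolic lists were -0.25 and -0.21, and within number 2 they were -0.01 and 0.02. All genes above background had a median of -0.11 in number 1 and -0.0016 in number 2.

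The list of NRF2 and BACH1 regulators also held the NRF2 target genes Nqo1, Gclm, Gclc, Srxn1 and Txnrd1, all above 0. It had a median of 0.09, with 9 of 11 above 0, against 44.8% of all genes, and 0 passing. Without control 2 the differences were -0.23 for Gclm, -0.17 for Gclc, -0.18 for Srxn1 and -0.14 for Txnrd1. That of Nqo1, at background, was 0.05. Without control 1 they were 0.50 for Gclm, 0.23 for Gclc, 0.66 for Srxn1, 0.32 for Txnrd1 and 0.31 for Nqo1. Within number 1 they were 0.11 for Gclm, -0.12 for Gclc, 0.04 for Srxn1, 0.0054 for Txnrd1 and 0.07 for Nqo1. Within number 2 they were 0.17 for Gclm, 0.18 for Gclc, 0.45 for Srxn1, 0.17 for Txnrd1 and 0.30 for Nqo1. Bach1, the heme-sensing repressor of Hmox1 and ferritin genes, had 7.54 and 7.55 with plumbagin, against 7.38 and 7.20 in controls, groups that were apart by a difference of 0.26 ± 0.10 (unadjusted p = 0.0533, adjusted p = 1). Of its small Maf partners, Mafg differed by -0.32 ± 0.11 and Mafk by -0.33 ± 0.16, both with all plumbagin arrays below all controls, and without plumbagin 1 they differed by -0.21 and -0.13. The small Maf gene Maff, at background, differed by 0.03 ± 0.13. Nfe2l2, which encodes NRF2 itself, differed by 0.04 ± 0.12. Keap1 was not analysed here.

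**Figure D4:**
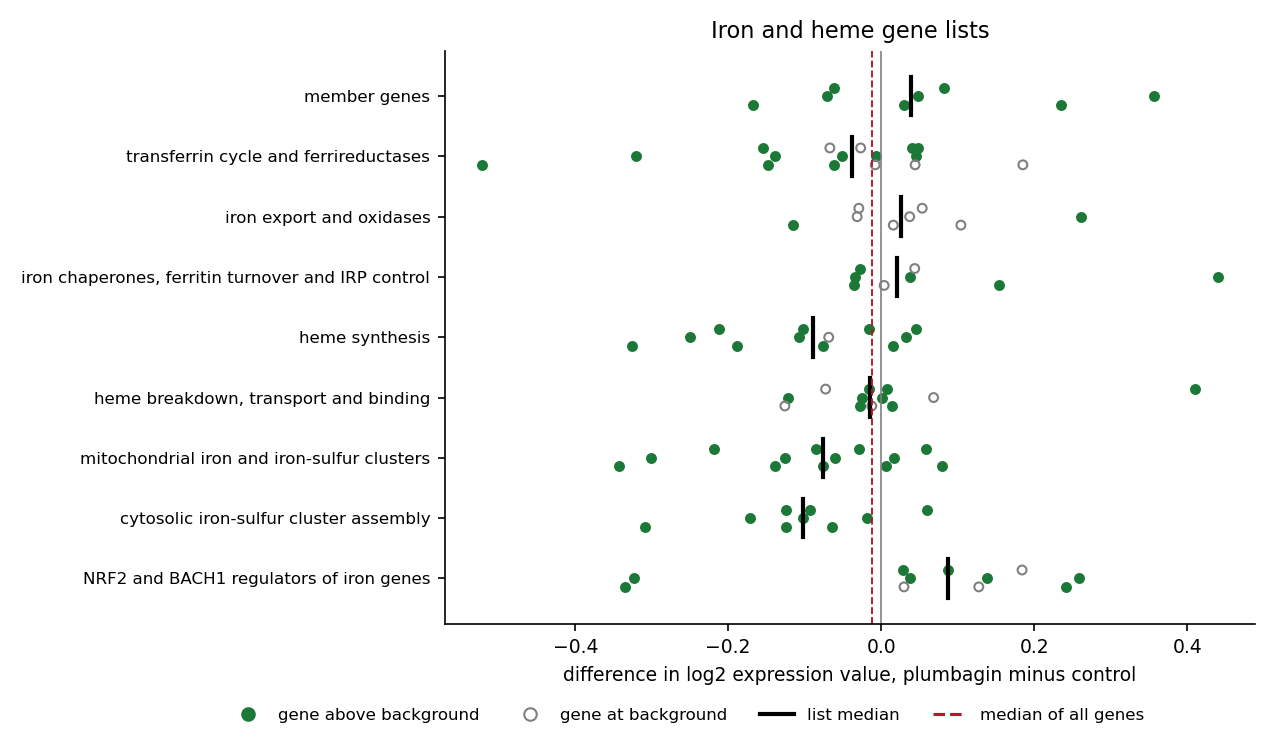
Difference in log2 expression value, plumbagin minus control, of each measured gene in the 8 iron and heme genes (top) and in 8 further lists, with green points above background, open grey points at background, a black bar for the list median and a dashed red line for the median of all genes. The 3 lists with the lowest medians are cytosolic iron-sulfur assembly (-0.10), heme synthesis (-0.09) and mitochondrial iron (-0.08), and no point passed the test.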

How the data were processed

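Biotin-labelled RNA was read on Affymetrix mouse arrays (GeneAtlas), per the labels' protocols. The authors deposited log2 values from RMA, 1 for each probe set on each array; the submitters' processing notes also name Affymetrix Expression Console and Transcriptome Analysis Console, without versions. RMA corrects for background, matches the distributions of arrays and combines probes, which removes a shift shared by most genes and compresses differences, most of all in dim genes.

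Of 45141 probe sets, 28898 had 1 gene symbol, 551 had several and were not named, 15588 were unnamed here and 104 were controls. Symbols were updated through Entrez numbers (28689 probe sets matched) with a RefSeq table of GRCm38.p6. Each gene took its probe set with the highest mean. Groups came from the sample titles. Differences were fitted with limma 3.58.1 (lmFit, eBayes; R version 4.3.3), two-sided and without covariates, and p was adjusted over 17097 genes by Benjamini-Hochberg with a threshold of 0.05. The fit was tested on simulated data. The genes and lists were chosen with earlier results of these data known. Genes of the lists were named by role or as the 3 with the smallest p per list. Alternatives were the mean of probe sets, every probe set, 2 filters on dim genes, 3 other normalizations, 2 variance models, the replicate number as a block, and each array left out, which takes the spread of an array left alone from the other group. The same normalizations were applied to differences within numbers, to their shared signs and to counts of groups apart, a step chosen after seeing the data.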

Additional observations from a re-analysis of the deposited data

How the results depend on the processing

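The count of iron and heme genes past the threshold was 0 of 8 under all 13 alternatives run by gene, as was that of the other iron and heme genes and that of all genes tested. The smallest adjusted p of any of the 8 genes under any of them was 0.792, for Blvrb without plumbagin 2. The median difference stayed above 0, between 0.003025 and 0.07681 with 1 array left out and between 0.02067 and 0.06057 otherwise. With the replicate number as a block, 0 genes passed and the adjusted p was 0.919 for both Tfrc and Blvrb. The titles give both groups the numbers 1 and 2 but do not say what a number marks. Deviations of same-numbered arrays from their group means correlated at 0.536 across genes, which are not independent, so the numbers may mark something shared, as a hint from the data alone.

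The sign of a difference between the groups turned in 7 cases, and the cause was not tested. These were Slc48a1 with probe sets averaged (0.02749), without control 1 (0.006995) and on its other probe set (0.1165), Blvra without plumbagin 2 (0.02873) and without control 1 (0.09782), where leaving out control 2 gave the lowest values of both genes (-0.1301 for Slc48a1 and -0.2389 for Blvra), Tfrc on its dimmest probe set (-0.001395) and Aco1 on its dim one (0.005375). Within numbers it turned in 5 cases, all of differences near 0: Fth1 in number 1 (-0.00857) and Slc40a1 in number 2 (-0.00878) after median centring, Slc40a1 (-0.009462) and Blvra (0.007008) in number 2 after quantile normalization, and Aco1 in number 2 with probe sets averaged (-0.01295). Under the alternatives run by gene, which do not take its dimmer probe sets singly, Tfrc ranged from 0.1302 to 0.5678. Groups were apart for Blvrb alone after median centring and for Tfrc and Blvrb after quantile normalization. After cyclic loess they were apart for Tfrc, Blvrb, Fth1 and Slc40a1. With probe sets averaged they were apart upward for Fth1, Slc40a1 and Blvrb and downward for Aco1. The shares of all genes apart under these settings were not computed, so no result about the iron and heme genes is read from these changes. In number 1 the Blvrb difference was 0.37 after quantile normalization and 0.39 after cyclic loess. The 2 arrays a group limit all of these comparisons, and the dimmest probe sets of Tfrc and Aco1 lay below the background level.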
